A study of Mus musculus with 8 samples.

Results

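Transcripts of 3 cortical neuropeptide precursors, cholecystokinin (Cck), neuropeptide Y (Npy) and proenkephalin (Penk), and of the kappa opioid receptor (Oprk1) were examined in the medial prefrontal cortex (mPFC) of mice whose excitatory neurons lack the orphan receptor GPR158. These 4 genes were taken by symbol from the 2372 genes of the authors' deposited table, after matching each row's position and strand to the GENCODE annotation of the mouse genome build GRCm38, and all 4 matched exactly. They were chosen by their adjusted p-values and fold changes in this genotype comparison. Those fold changes between genotypes are therefore a description of the authors' result and not a test of a prediction.

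The study compared 4 knockout mice (CamK2A-Cre;Gpr158flox/flox, called CaKO) with 4 littermates that carried the floxed alleles without Cre (Gpr158flox/flox). All 8 were naive adult males on a C57Bl/6J background, and 1 poly-A-selected library was sequenced per mouse from bulk mPFC tissue. The Camk2a promoter drives Cre in forebrain excitatory neurons, so interneurons and glia of these mice should keep the receptor. Analysed here were the 4 CaKO libraries' normalised read counts and, for each gene, the authors' log2 fold change, p and adjusted p. Values of the single control libraries were not used here. The table lists genes with a p below 0.05 only. A gene said below to have no value was above that limit, left out by the authors, or not matched exactly by position here. Gpr158 had 0 rows, and the genotype labels could not be checked against its transcript. The CaKO libraries held 2832931 to 3183638 reads over the listed genes. The cortical origin of the tissue was visible in Tbr1, a transcription factor of cortical excitatory neurons, at 2108 to 2517 normalised counts, and in Camk2a, at 37911 to 50901.

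Neuropeptides are cut from larger precursor proteins, packed into dense-core vesicles and released during sustained firing, and they act on G-protein-coupled receptors. In the cortex Cck is transcribed in many pyramidal cells and in a class of basket interneurons, Npy mainly in interneurons, often those that also make somatostatin, and Penk in scattered interneurons and some upper-layer cells. Oprk1 encodes the receptor for dynorphin, an opioid peptide from another precursor, Pdyn. It couples to inhibitory Gi/o proteins and lowers transmitter release where it sits on nerve endings. Bulk RNA does not separate these sources: fewer cells of a type and less RNA per cell cannot be told apart.

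All 3 peptide precursors fell and the receptor rose in CaKO. In the authors' deposited table, 3 members fell and 1 rose at an adjusted p below 0.05, where 1.97% of the 12938 genes in their adjustment fell and 1.27% rose, 3.24% together. The members were picked for these calls, so nothing is read from that contrast with the background. The 3 decreases were similar in size, to 72.4%, 71.6% and 74.2% of the control level for Cck, Npy and Penk in the authors' deposited table. Oprk1 was at 156% of it.

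Cck, the most abundant of the 4, encodes the precursor of the peptide that acts on the receptors Cckar and Cckbr (chromosome 9: 121489824 to 121495694, minus strand, GRCm38). It was counted at 4268, 3546, 2932 and 4454 normalised reads in CaKO replicates 1 to 4. The mean was 3800 ± 699 (SD, n = 4), with replicates 1 and 4 high and replicate 3 lowest. The authors' deposited table gives a log2 fold change of -0.47 (adjusted p = 0.0191), and the p implies a standard error of 0.13 and a 95% interval from -0.72 to -0.21. The control level implied by the CaKO mean and this fold change is 5247, above all 4 CaKO libraries. Here and for the other members, this level is calculated back from the fold change by which the members were chosen. It has no spread, so the side on which the libraries lie is no separate evidence of a difference. Counting error was small beside the spread between mice: a coefficient of variation of 18.4% between libraries compared with 1.65% expected from read numbers of 2949 to 4274.

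Npy, the precursor of a peptide that dampens excitability through the receptors Npy1r, Npy2r and Npy5r, lies on chromosome 6 (49822710 to 49829507, plus strand, GRCm38). Its normalised counts were 907, 733, 585 and 861 in CaKO replicates 1 to 4, a mean of 771 ± 144 (SD, n = 4). As for Cck, replicates 1 and 4 were high and replicate 3 was lowest. The authors' deposited table puts its log2 fold change at -0.48 (adjusted p = 0.0291, implied standard error 0.14, 95% interval from -0.76 to -0.21). All 4 libraries lay below the implied control level of 1078. The coefficient of variation was 18.7% between libraries, and 3.66% would come from counting alone.

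Cck and Npy also moved together from mouse to mouse. Per kilobase of exon sequence, the Cck level was 2.14 ± 0.0887 times the Npy level (SD, n = 4), and the ratio lay between 2.04 and 2.24 in the 4 libraries. Their deviations from their own mean log2 level differed by a root-mean-square of 0.05 over the 4 CaKO libraries. Of 1717 other genes compared, with a mean of at least 100 normalised counts, 15 were nearer to Cck by this measure. The nearest were Rasl10b, a Ras-like small GTPase (0.0085), and Tle3, a transcriptional co-repressor (0.016). Nearest to Npy were Ctxn1, a neuronal membrane protein (0.030), and Smarce1, a chromatin-remodelling subunit (0.031). With 4 libraries this likeness is a description only.

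Promoter sequences are shown for Cck and Npy only, because Penk and Oprk1 had no entry in the source used. The sequences are the 250 bases upstream of the transcription start from RefSeq (GRCm38.p6), where Cck and Npy, 2 of the 4 members, had an entry. They are written 5′ to 3′ on the strand of the gene, with matches to the searched motifs in capitals: chr9:121495695-121495944 on the minus strand for Cck and chr6:49822460-49822709 on the plus strand for Npy.
Cck: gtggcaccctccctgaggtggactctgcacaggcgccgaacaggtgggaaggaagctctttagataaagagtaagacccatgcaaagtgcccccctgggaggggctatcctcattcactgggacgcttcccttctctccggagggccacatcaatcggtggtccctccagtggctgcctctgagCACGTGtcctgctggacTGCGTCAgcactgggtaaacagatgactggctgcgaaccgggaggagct
Npy: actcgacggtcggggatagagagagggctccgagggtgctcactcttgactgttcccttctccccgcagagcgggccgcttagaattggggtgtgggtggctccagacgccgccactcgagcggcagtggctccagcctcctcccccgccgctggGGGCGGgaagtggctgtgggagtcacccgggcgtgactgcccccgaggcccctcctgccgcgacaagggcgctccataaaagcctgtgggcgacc

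Both strands were searched for the cAMP response element TGACGTCA, its variant TGCGTCA, its core TGACG, the E-box CACGTG and the GC box GGGCGG. The Cck window held TGCGTCA at 49 to 43 bases before the start, which contains a match to the core TGACG on the other strand, and an E-box at 66 to 61 bases. The Npy window held only a GC box, at 95 to 90 bases. Over 32851 promoter windows of the same length, TGCGTCA was found in 1.75%, TGACG in 17.8%, CACGTG in 6.02%, GGGCGG in 32.7% and TGACGTCA in 1.55%. The 2 windows thus shared no searched motif. They also differed in GC content, at 60.0% for Cck and 69.2% for Npy, against a median of 52.4% over all windows. A match describes these letters and does not show that a factor binds.

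Penk, the precursor of the enkephalins, which act mainly on the delta and mu opioid receptors, lies on chromosome 4 (4133531 to 4138819, minus strand, GRCm38). It was counted at 361, 277, 326 and 305 normalised reads in CaKO replicates 1 to 4, a mean of 317 ± 35.5 (SD, n = 4). Replicate 1 was highest and replicate 2 lowest, so Penk did not share the low replicate 3 of Cck and Npy. The authors' deposited table puts its log2 fold change at -0.43 (adjusted p = 0.0382, implied standard error 0.13, 95% interval from -0.69 to -0.17). Every CaKO library was below the implied control level of 427. Its coefficient of variation of 11.2% was the smallest of the 4, and counting alone would give 5.67%. On the log2 scale the whole range of the CaKO libraries was 0.38, which makes Penk the only member whose fold change exceeded that range. The ranges were 0.60 for Cck, 0.63 for Npy and 0.73 for Oprk1. Among all 419 called genes the fold change exceeded the range in 286. A gene on the opposite strand, A830012C17Rik, covers 233 of the 1634 exonic bases of Penk. The sources used here do not give whether reads were counted by strand, and reads from that stretch cannot be told apart.

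Oprk1, the only receptor among the members, lies on chromosome 1 (5588466 to 5606131, plus strand, GRCm38) and was the weakest of the 4. Its normalised counts were 163, 116, 134 and 97.95 in CaKO replicates 1 to 4, a mean of 128 ± 27.6 (SD, n = 4). Replicate 1 was highest and replicate 4, which was high for Cck and Npy, was lowest. The authors' deposited table gives a log2 fold change of 0.64 (adjusted p = 0.0473, implied standard error 0.20, 95% interval from 0.25 to 1.04). All 4 libraries were above the implied control level of 81.8, replicate 4 by the least. At 94 to 162 reads per library, counting alone would give a coefficient of variation of 9.02%, and 21.6% was measured. Oprk1 had the largest p of the members, and the largest p of any called gene was 0.00162 against 0.00147 for Oprk1.

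**Figure D1:**
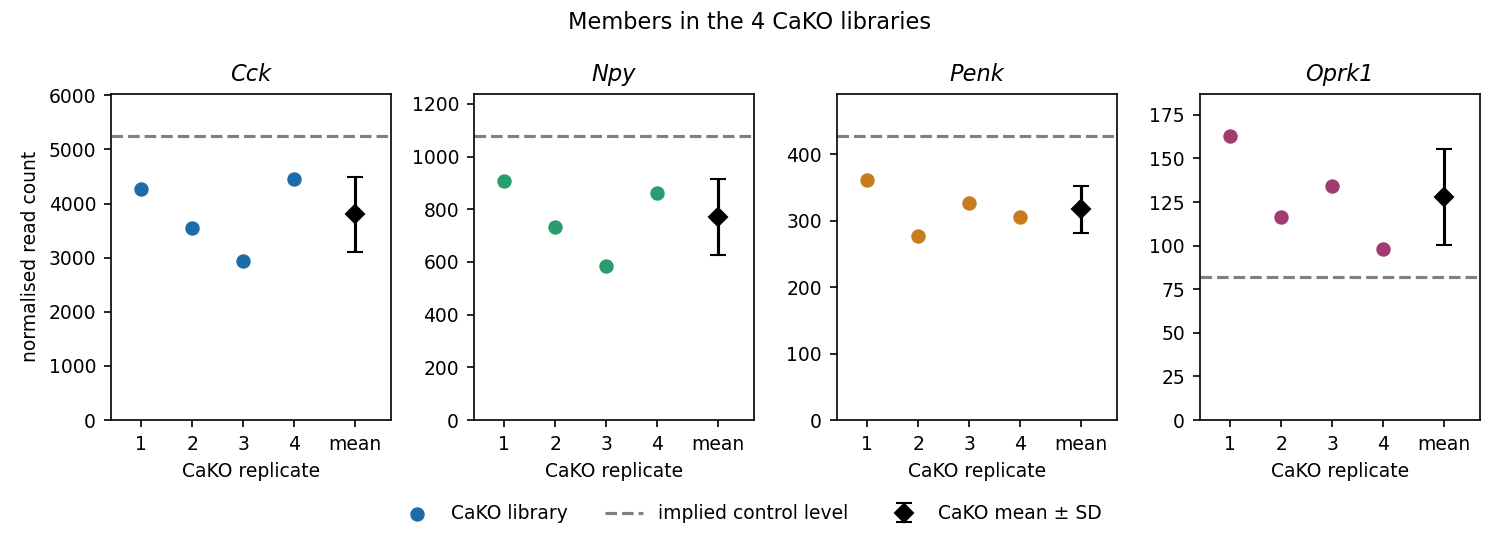
Normalised read counts (vertical axes, from 0) of Cck, Npy, Penk and Oprk1 in CaKO replicates 1 to 4 (coloured points), with the CaKO mean ± SD (black diamond, n = 4) and the control level implied by the authors' fold change (dashed line, a value without error). The 4 libraries lie below the dashed line for Cck, Npy and Penk and above it for Oprk1.

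Over the 4 CaKO libraries the members did not all vary alike, which with 4 libraries is a description only. In replicate 3 Cck and Npy were 0.35 and 0.38 below their own mean log2 level, whereas Penk and Oprk1 were 0.05 and 0.10 above theirs. Those of Penk and Oprk1 are within what counting alone would give, coefficients of variation of 5.67% and 9.02%. In replicate 4 Cck and Npy were 0.25 and 0.18 above and Oprk1 was 0.36 below. All 4 were above their means in replicate 1 and below them in replicate 2. Genes close to Oprk1 in these deviations included Ugt8a, an enzyme of myelin lipid synthesis, and Fzd6, a Wnt receptor, each at a root-mean-square difference of 0.07. Both had the opposite sign to Oprk1 in the genotype comparison of the authors' deposited table, at -0.48 for Ugt8a (adjusted p = 0.12) and -0.37 for Fzd6 (adjusted p = 0.213). Nearest to Penk were Gm4332 (0.018) and Gm47163 (0.031). These too had the opposite sign to the member in the authors' deposited table, at 0.35 (adjusted p = 0.237) and 0.28 (adjusted p = 0.284).

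**Figure D2:**
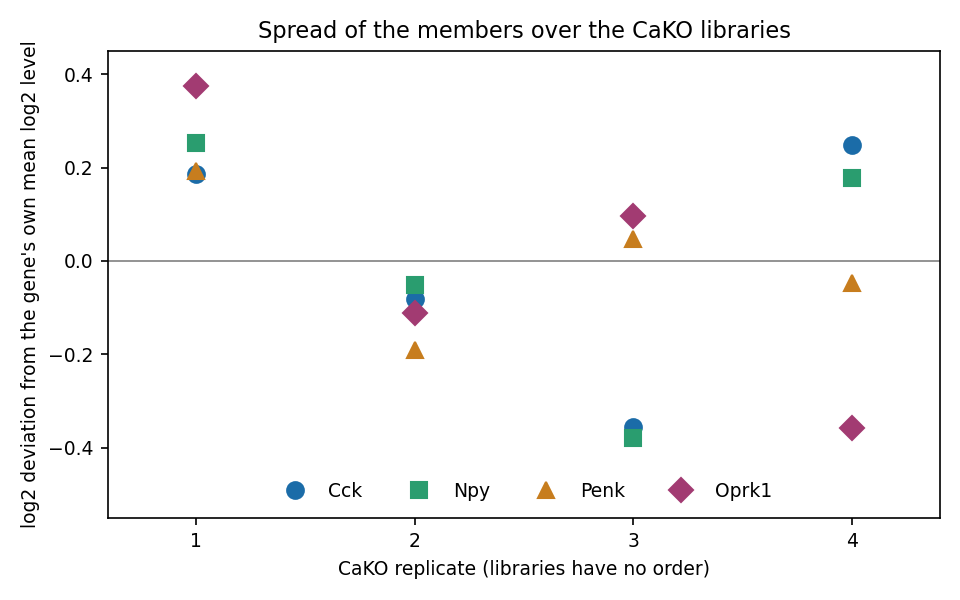
Deviation of each member from its own mean log2 level (vertical axis, log2 units) in each CaKO library (horizontal axis). The Cck circles and Npy squares stay within 0.1 of each other in every library. The Oprk1 diamonds lie on the other side of 0 from them in replicates 3 and 4. In replicate 3 that is by 0.10 only, within what counting alone would give.

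Set per kilobase of exon sequence, the CaKO levels of the members spanned a wide range. Cck averaged 2912 ± 535 normalised counts per kilobase, Npy 1363 ± 255, Penk 194 ± 21.7 and Oprk1 14.0 ± 3.02 (SD, n = 4 each). No neighbours in this order overlapped: Cck ranged from 2246 to 3413, Npy from 1033 to 1602, Penk from 169 to 221 and Oprk1 from 10.7 to 17.8. Of the listed genes, 98.5% had a lower level per kilobase than Cck, 96.0% than Npy, 65.7% than Penk and 13.4% than Oprk1. The exonic lengths behind these values are 1305, 566, 1634 and 9151 bases. No transcript of another gene was near-identical to one of the members. The BLAST search asked for at least 98% identity over at least 200 bases and at least 50% of either transcript. Shared stretches that cover less of both transcripts were not counted by it. Within 500 kb of a member, 4 genes near Cck, 1 near Npy and 1 near Penk had a p below 0.05, and 0 of them were called. Over all genes in the adjustment 15.8% had such a p and 3.24% were called. Genes above that p are not listed, so no share can be given for these windows.

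Each of the 4 calls ended when at least 1 of the CaKO mice was left out. Leaving out 1 CaKO library at a time was approximated by a calculation that keeps the implied control level and widens the implied standard error for 3 libraries. The directions held in all 16 cases and the calls in 6. Without replicate 3 the log2 fold changes were -0.36 for Cck, -0.37 for Npy, -0.44 for Penk and 0.62 for Oprk1, and without replicate 2 they were -0.43, -0.46, -0.37 and 0.69. In both cases 0 of the 4 calls remained by the approximate p, which was highest for Npy without replicate 3, at 0.015. Without replicate 1 the call of Oprk1 ended (0.50) and the 3 peptides kept theirs. Without replicate 4 that of Penk ended (-0.41) and the other 3 held. The wider error alone would have ended the calls of Penk and Oprk1, and left those of Cck and Npy.

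**Figure D3:**
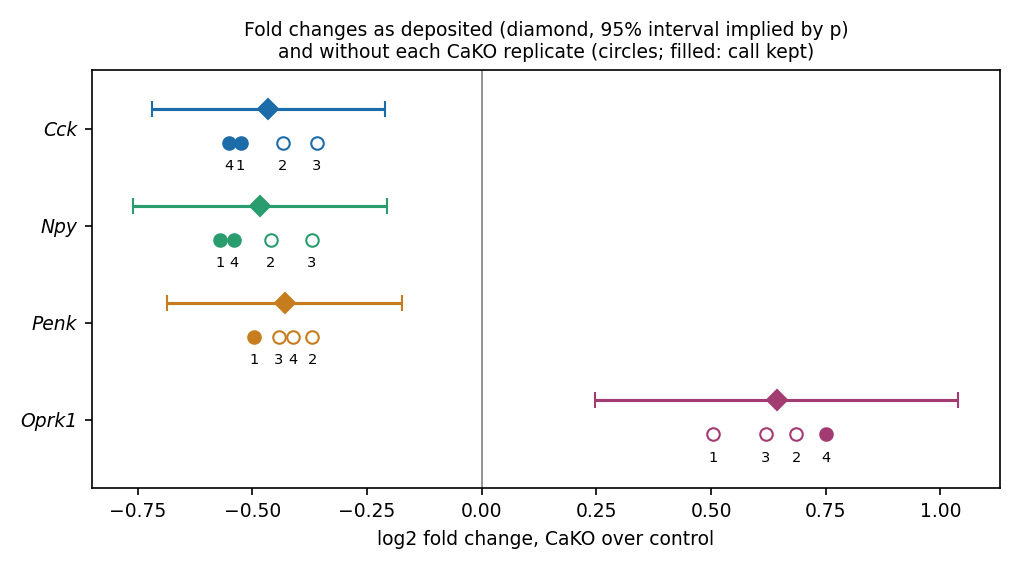
Log2 fold change of CaKO over control (horizontal axis) for each member, as deposited (diamonds, with the 95% interval implied by p) and recomputed without the CaKO replicate numbered under each circle. Filled circles kept the call. All circles of Cck, Npy and Penk lie below 0 and all of Oprk1 above it, from 0.50 to 0.75.

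Few other neuropeptide precursors had a value. Of 24 in a fixed list, 0 were called and 2 reached the authors' deposited table with a p below 0.05. Over all genes in the adjustment, 3.24% were called and 15.8% had such a p in either direction. Apln, the precursor of the vasoactive peptide apelin, is at -0.30 on the log2 scale (authors' deposited table, adjusted p = 0.174). Tac1, the precursor of substance P, had 0.35 there (adjusted p = 0.268). Sst, Vip, Crh, Cort, Pnoc and Pdyn, the precursor of the ligand of Oprk1, had no value. The median over the 2 listed precursors, which lie on opposite sides of 0, was 0.02, against -0.22 over all listed genes in the adjustment. It describes neither of the 2, nor the precursors without a value.

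Among the receptors for the 3 peptides and the other opioid receptors, 2 of 10 had a p below 0.05 and both were on the higher side, where 7.14% of all genes in the adjustment were. Npy2r, a presynaptic receptor for neuropeptide Y, was counted at 75.4, 64.1, 75.6 and 50.0 normalised reads in CaKO replicates 1 to 4. As for Oprk1, replicate 4 was lowest. The authors' deposited table puts its log2 fold change at 0.57, which did not pass (adjusted p = 0.164). Oprl1, the receptor for nociceptin, averaged 739 ± 77.3 (SD, n = 4), with 0.25 in the authors' deposited table (adjusted p = 0.213). Cckar, Cckbr, Npy1r, Npy5r, Oprd1 and Oprm1 had no value. Of 22 receptors for other neuropeptides 1 had a value, Ntsr2, a neurotensin receptor of astrocytes, at -0.31 in the authors' deposited table (adjusted p = 0.116).

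Among genes that make, store and destroy peptides, few had a value. The vesicle granin Scg3 fell, and Chgb and Ece1 were on the lower side without a call. Of 17 genes of peptide processing and dense-core vesicles, 1 fell and 2 had a p below 0.05, both lower. Over all genes in the adjustment, 1.97% were called lower and 8.68% were lower at that p. Scg3, a granin that sorts cargo into dense-core vesicles, was counted at 3640, 2817, 2585 and 3220 normalised reads in CaKO replicates 1 to 4. Replicate 3 was lowest, as for Cck and Npy. It fell in the authors' deposited table, to a log2 fold change of -0.50 (adjusted p = 0.00729), and the call ended without replicate 3, at -0.43. Chgb, another granin, also had its lowest count in replicate 3, and its -0.50 in the authors' deposited table did not pass (adjusted p = 0.0642). The convertases Pcsk1 and Pcsk2, the carboxypeptidase Cpe and the amidating enzyme Pam had no value. Of 6 peptide-degrading enzymes only Ece1, which cleaves endothelin and several neuropeptides, had a value, -0.38 in the authors' deposited table (adjusted p = 0.136).

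Receptors for neuropeptide Y and the opioid peptides signal through Gi/o proteins, and genes of that pathway lay on both sides. Of 15, 1 fell and 4 had a p below 0.05, 2 higher and 2 lower, beside 3.24% called and 15.8% at that p in either direction over all genes in the adjustment. Rgs4, which shortens Gi/o signals by speeding GTP hydrolysis, fell in the authors' deposited table, with a log2 fold change of -0.38 (adjusted p = 0.0356). The call ended without CaKO replicate 4 (-0.29) and, at a nearly equal fold change, without replicate 2 (-0.38). The wider error for 3 libraries would end it at an unchanged fold change. The authors' deposited table has Gnb2 at -0.34 (adjusted p = 0.103), Gnb5, the partner of the RGS proteins that bind GPR158, at 0.24 (adjusted p = 0.256) and Gnai1 at 0.24 (adjusted p = 0.301). The CREB pathway is known to induce peptide genes such as Penk. Of 18 genes of that pathway and of activity-induced transcription, 0 were called and 2 had a p below 0.05. The authors' deposited table has Egr1, an immediate early gene, at -0.68 (adjusted p = 0.204) and Inhba at 0.32 (adjusted p = 0.255).

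**Figure D4:**
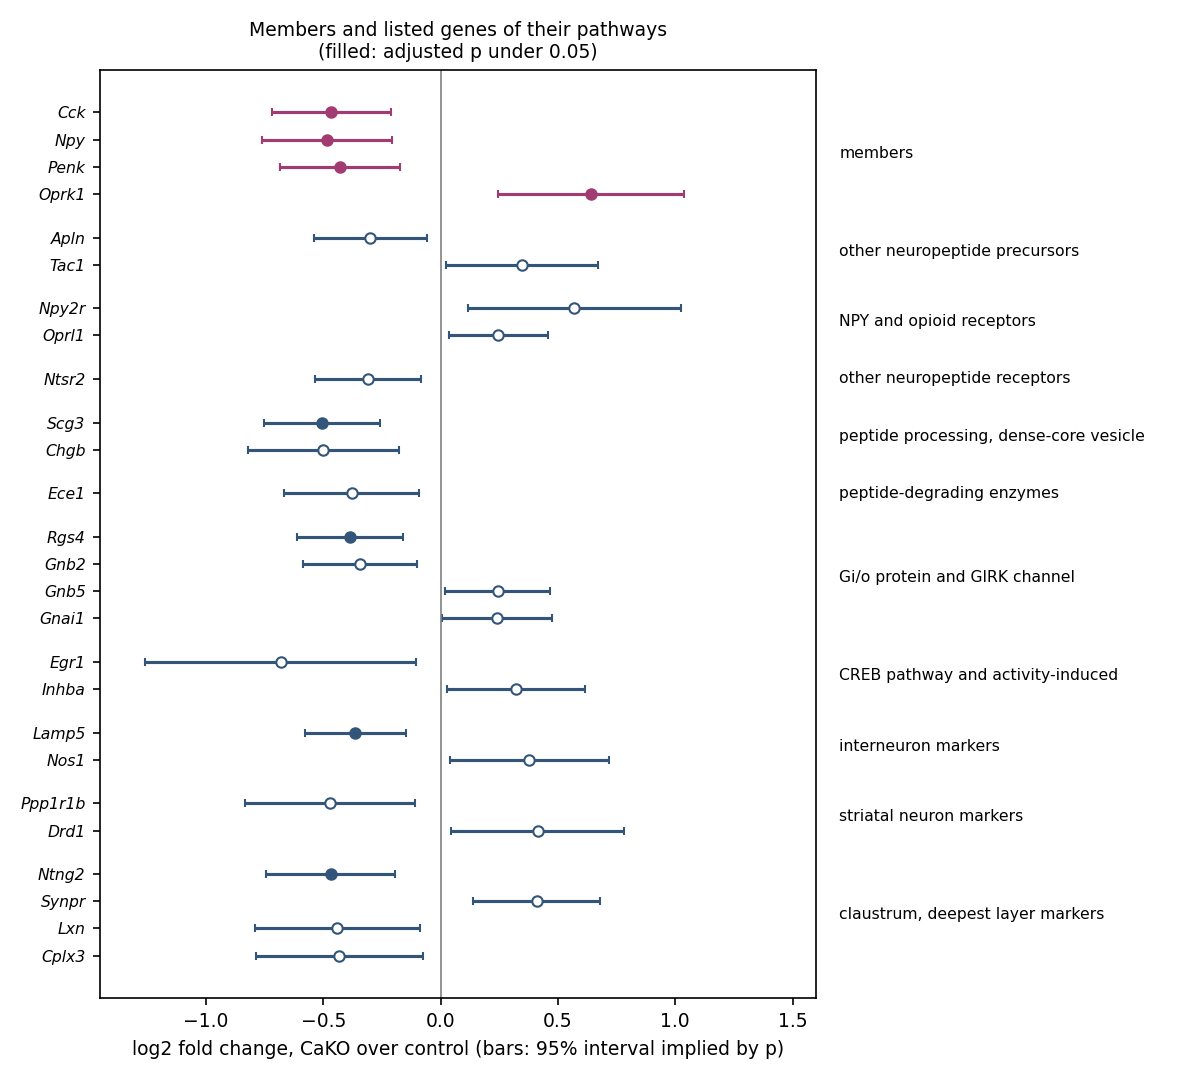
Log2 fold change of CaKO over control in the authors' deposited table (horizontal axis, bars the 95% interval implied by p) for the members (top) and the genes named from 10 fixed lists. Filled points passed an adjusted p of 0.05. Scg3, Rgs4, Lamp5 and Ntng2 are the filled points beside the 4 members, all below 0.

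Markers of the cells that could carry these transcripts gave the following values. The shares over all genes in the adjustment to set beside them are 1.97% called lower and 8.68% lower at a p below 0.05, or 3.24% and 15.8% in either direction. Of 25 interneuron markers, 1 fell and 1 further gene had a p below 0.05, shares near or under that background. Lamp5, also made by upper-layer pyramidal cells, fell in the authors' deposited table, with a log2 fold change of -0.36 (adjusted p = 0.0357). The call ended without CaKO replicate 1 (-0.35), 3 (-0.33) or 4 (-0.32). As for Penk and Oprk1, the wider error for 3 libraries would end this call at an unchanged fold change. Nos1 was at 0.38 there (adjusted p = 0.24). Gad1, Gad2, Slc32a1, Lhx6, Pvalb, Sst and Vip, which define cortical interneurons, had no value. The summed level of the 2 listed markers was 3537 to 4372 normalised counts over the CaKO libraries, lowest in replicate 3. Lamp5 by itself was lowest in replicate 4.

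Of 14 pyramidal neuron markers, 2 fell and 5 had a p below 0.05, all lower, beside the same 1.97% and 8.68% over all genes in the adjustment. The authors' deposited table gives -0.44 for Cux1, a transcription factor of upper layers, and -0.50 for Nrgn, a calmodulin-binding protein of spines. The median over these 5 was -0.44, and their summed level was 49905 to 68589 normalised counts, lowest in replicate 3. Cck and Npy were lowest there too, and so was the total over all listed genes, at 2816253 normalised counts against 3022157 to 3199760 in the other libraries. The call of Nrgn ended without replicate 3, at -0.37, and that of Cux1 held without each replicate in turn. Striatal neurons are rich in Penk, and no count over the list of their markers is given here. Of those reported, the authors' deposited table has Ppp1r1b at -0.47 (adjusted p = 0.149) and Drd1 at 0.41 (adjusted p = 0.237). Their summed level was 465 to 770.1, and Drd2 and Adora2a, which mark the Penk-expressing striatal cells, had no value.

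Oprk1 is also strong in the claustrum and the deepest cortical layer in mouse. Of 9 markers of these cells, 1 fell and 4 had a p below 0.05, 3 of them lower; the background for this list and the next 2 is again 1.97% called lower and 8.68% lower at that p. Ntng2 fell in the authors' deposited table, with a log2 fold change of -0.47 (adjusted p = 0.0337), a call that ended without CaKO replicate 2 (-0.40) or 3 (-0.39). The wider error for 3 libraries would end it at an unchanged fold change too. The authors' deposited table has Synpr at 0.41 (adjusted p = 0.073), Lxn at -0.44 (adjusted p = 0.166) and Cplx3 at -0.43 (adjusted p = 0.185). The summed level of the 4 was 2200 to 2724. Of the 9 oligodendrocyte markers reported, 8 were matched exactly with a p below 0.05, all lower, and 4 of them fell (Opalin was matched by overlap only and left out), with a summed level of 21681 to 25024, lowest in replicate 3. Mbp, at 9274 to 12805 normalised counts, weighs most in that sum, and the single genes did not share its order. Mbp and Mobp were lowest in replicate 3, Cnp and Mag in replicate 2, and Mog, Cldn11, Mal and Ugt8a in replicate 4. The authors' deposited table gives -0.73 for Mobp (adjusted p = 1.37e-07), -0.68 for Mbp (adjusted p = 5.38e-05) and -0.35 for Cnp (adjusted p = 0.0122). Their calls held without each CaKO replicate in turn. The call of Mag, 1 of the 4 that fell, ended without CaKO replicate 1 (-0.31) or 2 (-0.28). Of 10 astrocyte markers 4 had a p below 0.05, all lower, and 2 fell, with a summed level of 25856 to 30036, lowest in replicate 1. Glul and Aldoc were lowest in that library, whereas Atp1b2 and Gfap were lowest in replicate 3. Both astrocyte calls ended without CaKO replicate 3, with Atp1b2 at -0.38 and Aldoc at -0.33, and that of Aldoc also without replicate 1 (-0.28). No marker with a value was at 0 in any CaKO library. The part of any of these cell types in the changes of the members was not tested.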

How the data were processed

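RNA from the mPFC of 4 CaKO and 4 control mice was sequenced as 100 bp paired reads, per the labels' protocols. The submitters' processing notes name TopHat2 2.0.12, HTSeq 0.6.1, DESeq2 1.30.1 and the build GRCm38, and the design text gives TopHat for alignment and HTSeq for counting genes. The deposited library values are a signal, read counts that the authors divided by a factor for each library: 100.0% were whole multiples of 1 step (tolerance 0.01), which was 0.994 to 1.04 per library. Total depth is unknown, and counting error covers reads, not molecules. The log2 fold changes (CaKO over control), p-values and adjusted p-values are the authors', as deposited. Their direction was read from the 18 genes at 0 in every CaKO library, all 18 with negative values. The adjusted values follow Benjamini-Hochberg over 12938 genes. A further 325 genes listed with an adjusted p of 1 were taken as outside it. Each library is 1 mouse.

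"Fell" and "rose" mean an adjusted p below 0.05 in that table. Implied standard errors divide the fold change by the normal quantile of p. Of the 2372 rows, 2266 matched GENCODE M21 exactly, and these were used. A call was taken as lost in an alternative where the approximate p exceeded 0.00162. The members and the 13 lists were chosen with earlier results of these data known. Named genes are the members, the called genes of each list (at most 4) with up to 3 further listed genes by p, and the 2 genes nearest to each member over the CaKO libraries. Some listed genes are not reported here and were left out of the lists' counts and of the nearest genes. Fits of all 8 libraries were not run, since control values were not used here. Python 3.11.15, pandas 2.3.3, scipy 1.17.1 and BLAST 2.17.0 were used. The size of the adjustment was recovered from simulated data. For the left-out-library step only the arithmetic of the fold change was checked on such data. The widened error and the approximate p, which decide whether a call is kept, were not simulated.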

Additional observations from a re-analysis of the deposited data

Results flagged for a closer look

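A library far from the other 3 was looked for in each of 50 genes given here (gap to the nearest library over the whole range above Dixon's critical value at 95%), which chance exceeds in about 1 gene in 20. It was found in 2, and in 0 of the 4 members. Cplx3 was at 117 normalised counts in CaKO replicate 4 and at 91.5 to 95.2 in the others, and Cnp was at 2560 in replicate 1 and at 2264 to 2285 in the others.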

How the results depend on the processing

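All 4 members kept their direction in the 24 alternatives run for them. Rescaling the CaKO libraries to equal totals kept all 4 calls. Taking the median of the CaKO libraries in place of the mean ended those of Npy (-0.44) and Oprk1 (0.61), because the approximate p passed the limit. With each CaKO library left out, the log2 fold change ranged from -0.55 to -0.36 for Cck, from -0.57 to -0.37 for Npy, from -0.50 to -0.37 for Penk and from 0.50 to 0.75 for Oprk1, and 0 to 3 members were called lower. At an adjusted p below 0.01 in the authors' table (DESeq2 among their tools), 0 members were called lower, against 3 at an unadjusted p below 0.05. Adding the genes listed with an adjusted p of 1 to the adjustment left 3. The lists held 12 called genes, 12 with overlap matches and 17 at an adjusted p below 0.10, and 23 of 26 counts per list stayed within 1.5 times. The 38 named list genes kept their direction in 228 alternatives, added after seeing the data. By the approximate p, 16 of these alternatives ended a call and 9 gave a call to a gene without one. No paired analysis was possible because only CaKO libraries had values here, and the planned limma fits over 8 libraries were not run for the same reason. Read number limits Oprk1 most, at 94 to 162 reads per library.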
